A study of Mus musculus with 12 samples.

Results

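Gene expression on the 3 arrays of CD2-LMO2 transgenic mice was compared with that on the 6 arrays of wild-type mice, which together make up 9 of the 12 arrays of the series. The arrays were chosen by the titles of the samples, and the 6 wild-type arrays were read as 2 sets, replicates 1 to 3 and replicates 4 to 6, so that each change could be asked of both. All samples were double-negative thymocytes sorted from the thymus of C57BL/6 mice aged 2 months, and the transgene is the only difference between the groups that the labels give. The other 3 arrays, of mice that carry the transgene and lack Lyl1, entered the fit only through the estimate of the spread. The labels do not give the founder line, the sex of the mice or whether an array stands for 1 mouse or a pool, so p-values rest on the spread over arrays alone, part of which may be technical. The groups are called the Lmo2 arrays and the wild-type arrays. In the deposited raw table the names of 3 wild-type columns also carry the word NHD13, which no label explains, and these columns matched wild-type replicates 4 to 6.

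Double-negative thymocytes are the earliest cells of the thymus, which lack both co-receptors, CD4 and CD8, and pass from multipotent progenitors to cells committed to the T lineage while they rearrange their receptor genes. LMO2 is a LIM-only protein that binds no DNA itself and bridges basic helix-loop-helix factors such as LYL1 and TAL1 with GATA factors and LDB1 in blood stem and progenitor cells. It is normally shut off as T cells commit, and human T-cell leukaemias can carry it switched on. The CD2 promoter keeps it expressed through T-cell development, and mice with such a transgene can develop T-cell leukaemia after a long latency.

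The share of probes detected ran from 37.9% to 43% over the 12 arrays, where detected means a detection p under 0.05 against the negative-control beads. Values are normalized log2 intensities, on which 1 unit is a 2-fold difference, and a probe near 4.9, the median of all probes, is at background. Cd3e, a chain of the T-cell receptor complex, was not called between the groups (Lmo2 13.41 to 13.58, wild type 13.43 to 13.57), and Thy1, a surface protein of thymocytes, lay at 13.62 to 14.23 and 14.02 to 14.44, with a difference of -0.42 that was called only without Lmo2 replicate 3 (-0.60, adjusted p = 0.0279). Cd4 was low on all 9 arrays, from 4.94 to 6.03. Cd8b1, the beta chain of the CD8 co-receptor, was not at background, with 12.42 to 13.19 on the wild-type arrays and 9.8 to 11.07 on the Lmo2 arrays. The arrays do not measure surface protein, so these values do not check the CD8-negative part of the label. Pearson correlations over all probes, which are not independent replicates, were 0.953 to 0.976 between Lmo2 arrays, 0.979 to 0.99 within wild-type replicates 1 to 3, 0.99 to 0.993 within replicates 4 to 6 and 0.969 to 0.979 between the sets. Lmo2 replicate 3 was the farthest from the other Lmo2 arrays, with 0.953 against both. Xist, the RNA of the inactive X chromosome, read 4.46 to 4.55 on wild-type replicates 1 to 3 and 11.59 to 12.14 on replicates 4 to 6, and 12.88, 4.57 and 11.66 on Lmo2 replicates 1, 2 and 3. The Y-linked gene Kdm5d ran the other way, at 7.95 to 8.85 and 4.8 to 4.85 in the wild-type sets and 4.53, 8.37 and 5.02 on the Lmo2 arrays. Uty, also Y-linked and dimmer, overlapped between the wild-type sets, at 5.33 to 6.4 and 5.51 to 6.45. Eif2s3y, also Y-linked, read 9.82 to 10.32 and 4.58 to 4.79 in the wild-type sets and 4.43, 10.47 and 4.56 on Lmo2 replicates 1, 2 and 3. By Xist, Kdm5d and Eif2s3y wild-type replicates 1 to 3 and Lmo2 replicate 2 had the male pattern. Wild-type replicates 4 to 6 and Lmo2 replicates 1 and 3 had the female one. By these RNAs the 2 wild-type sets therefore also differed in sex, which the labels do not give. These genes were picked after their values were seen, and limma called 0 of them between the groups, with 0 at an unadjusted p under 0.05. Each group mixed both patterns, so this comparison could hardly call them. Xist differed by 5.19 from wild-type replicates 1 to 3 (limma adjusted p = 0.186) and by -2.17 from replicates 4 to 6 (0.492).

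The comparison asked what differed in sorted thymocytes of mice with the transgene. Against all 6 wild-type arrays 1319 of 10526 genes changed at an adjusted p under 0.05 (12.5%), with 699 higher (6.64%) and 620 lower (5.89%). An at least 2-fold difference was seen in 350 of the higher and 370 of the lower genes. Against replicates 1 to 3 alone 1080 genes changed (10.3%), 570 up (5.42%) and 510 down (4.85%), and against replicates 4 to 6 alone 2569 changed (24.4%), 1237 up (11.8%) and 1332 down (12.7%). In total 815 genes changed the same way against both sets (7.74%), 431 higher (4.09%) and 384 lower (3.65%), and no gene was called in opposite directions. Both contrasts share the 3 Lmo2 arrays, so the sets are not independent repeats. All 815 were among the 1319, which left 378 genes called against all arrays that passed only against replicates 4 to 6, 81 that passed only against replicates 1 to 3 and 45 that passed against neither. In 802 of the 815 genes (425 higher or 4.04% of all tested, 377 lower or 3.58%) the 3 Lmo2 values lay outside the range of all 6 wild-type values, which 14.8% of all tested genes did with or without a call. Of the 431 higher genes 243 differed at least 2-fold from each set and 32 at least 8-fold, and of the 384 lower genes 264 and 8. No wild-type array detected the chosen probe of 50 of the higher genes, and no Lmo2 array that of 55 of the lower ones. With arrays scaled to a common median in place of the authors' quantile-like scale, the split against replicates 4 to 6 was 1625 up and 961 down, or 62.8% up against 48.2%. Leaving out wild-type replicate 3 lowered the count against replicates 1 to 3 to 709, and leaving out replicate 5 or 6 lowered that against replicates 4 to 6 to 1578 or 1497.

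**Figure D1:**
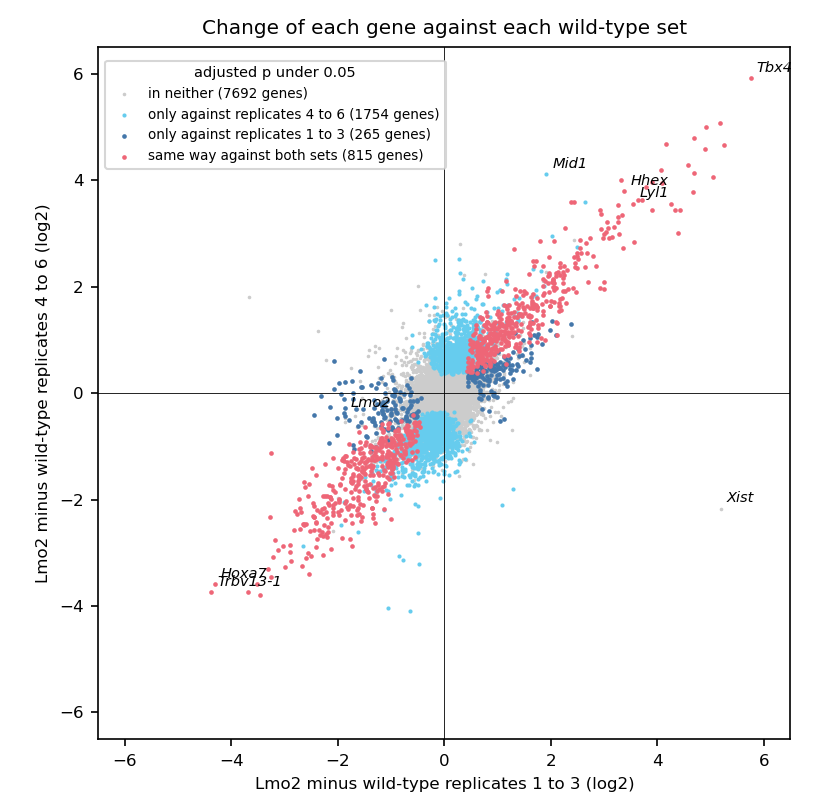
Each point is 1 of 10526 genes, with its log2 difference from wild-type replicates 1 to 3 on the horizontal axis and from replicates 4 to 6 on the vertical axis; both use the same 3 Lmo2 arrays. The 815 genes called the same way against both sets lie in the upper right and lower left quadrants, while 1754 genes were called only against replicates 4 to 6 and 265 only against replicates 1 to 3.

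Lyl1, the basic helix-loop-helix partner after which the series asks, read 10.01, 10.19 and 11.64 on Lmo2 replicates 1, 2 and 3 and 6.66 to 7.25 with a median of 7.14 on the wild-type arrays. It rose by 3.55 ± 0.29 (adjusted p = 6.85e-06), by 3.54 against replicates 1 to 3 and 3.56 against replicates 4 to 6. The Lmo2 probe read 7.35, 5.75 and 6.62 on the Lmo2 arrays, 8.36 to 8.62 on wild-type replicates 1 to 3 and 6.77 to 7.16 on replicates 4 to 6. Its difference was -1.14 ± 0.5 and missed the threshold (adjusted p = 0.167), with -1.89 against replicates 1 to 3 (0.0096) and -0.38 against replicates 4 to 6 (0.492). No source used here says whether this probe reads the transgene, so it does not check the label. Of 19 measured genes of the LMO2 complex and its helix-loop-helix partners 3 rose and 1 fell, or 21.1% against 12.5% of all genes. Besides Lyl1 these were Cbfa2t3, a corepressor of the ETO family (10.65 to 11.2 against 10.24 to 10.6; rose by 0.63 ± 0.15), Tcf12, an E-protein (10.6 to 10.98 against 9.57 to 10.47; rose by 0.75 ± 0.19), and Id3, an inhibitor of E-proteins. Id3 lay at 7.21, 7.16 and 6.23 on Lmo2 replicates 1, 2 and 3 against 8.19 to 8.89 with a median of 8.47 in wild type, and fell by 1.63 ± 0.24 (adjusted p = 0.00067). Lyl1, Cbfa2t3 and Id3 passed against both sets. Without Lmo2 replicate 3 the calls of Cbfa2t3 (0.56, adjusted p = 0.0566) and Tcf12 (0.63, 0.0865) were lost, as was that of Cbfa2t3 without Lmo2 replicate 1 (0.53, 0.06).

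The regions just before the start of Lyl1, of Hhex and of Tbx4 are shown. They stand for 1 clearly higher gene each of the LMO2 complex, of homeobox factors and of T-box and related factors. Another homeobox gene, Dlx1, was at least 9.72-fold higher, and its window is not shown. They are the RefSeq windows of build GRCm38.p6 from 250 bases before to 50 after the start, all on the plus strand, at chr8:84701207-84701506 for Lyl1, chr19:37434591-37434890 for Hhex and chr11:85896515-85896814 for Tbx4, with CANNTG in capitals. CANNTG, where N is any base, is the core of the E-box that helix-loop-helix dimers bind, and it reads the same on both strands.
Lyl1: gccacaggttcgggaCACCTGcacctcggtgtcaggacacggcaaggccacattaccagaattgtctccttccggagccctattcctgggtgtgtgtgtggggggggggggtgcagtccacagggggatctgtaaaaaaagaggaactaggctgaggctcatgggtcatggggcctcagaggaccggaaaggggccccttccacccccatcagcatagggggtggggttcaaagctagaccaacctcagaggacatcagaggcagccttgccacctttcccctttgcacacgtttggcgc
Hhex: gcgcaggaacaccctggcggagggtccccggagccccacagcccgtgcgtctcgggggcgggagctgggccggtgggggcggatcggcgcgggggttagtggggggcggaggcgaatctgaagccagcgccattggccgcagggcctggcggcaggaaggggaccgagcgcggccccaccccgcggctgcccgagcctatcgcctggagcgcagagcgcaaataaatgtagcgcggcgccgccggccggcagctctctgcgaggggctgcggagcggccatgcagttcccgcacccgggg
Tbx4: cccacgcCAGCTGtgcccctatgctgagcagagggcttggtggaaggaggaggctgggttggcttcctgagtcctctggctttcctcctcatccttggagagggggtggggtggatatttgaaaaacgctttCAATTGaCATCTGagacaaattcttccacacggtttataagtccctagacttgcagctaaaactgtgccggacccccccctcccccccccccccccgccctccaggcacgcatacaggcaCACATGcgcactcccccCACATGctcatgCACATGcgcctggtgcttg
The Lyl1 window held CANNTG at 1 place, the Tbx4 window at 6 and the Hhex window at 0, and GATAA, a core that GATA factors bind, stood on neither strand of any of them. Windows were found for 633 of the 815 genes called against both sets. For the tested, higher and lower genes 1 window per gene was counted, the first listed. Among all windows every one was counted, so that share has another unit. CANNTG was in 68.7% of the 332 windows of higher genes, in 71.8% of the 301 of lower genes, in 63.5% of the 8586 of all tested genes and in 72.3% of all 32851 windows. GATAA was in 16.3%, 17.9%, 16.3% and 25.4%. These are matches of letters in a short window, not binding sites.

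The largest increases that held against both sets included genes that no wild-type array detected. Tbx4, a T-box transcription factor of limb and lung development, read 11.64, 11.02 and 8.69 on Lmo2 replicates 1, 2 and 3, against 4.5 to 5.03 on the wild-type arrays, where no array detected it. It was at least 36-fold higher (adjusted p = 6.2e-06), a bound taken against the dimmest detected probe of each wild-type array. Lmcd1, a LIM-domain cofactor, read 8.4, 10.07 and 9.65 against 4.51 to 4.82 and was at least 17.1-fold higher (adjusted p = 6.72e-07). Dlx1, a homeobox factor of the forebrain, read 8.71, 9.04 and 7.92 against 4.42 to 4.99 and was at least 9.72-fold higher (adjusted p = 6.72e-07). On all 3 genes even the lowest Lmo2 array lay more than 2 log2 units above the highest wild-type array, yet Tbx4 was 2.95 units lower on Lmo2 replicate 3 than on replicate 1. Tenm4, a teneurin of cell adhesion, spread more still, at 8.83, 7.33 and 10.33 against 4.53 to 5.04 (adjusted p = 7.19e-05), and as this probe was detected on no wild-type array no size is given. Of its 2 other kept probes 1 rose by 3.37 and 1 differed by 0.85 and missed the threshold (adjusted p over probes = 0.0646).

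Rpl3l, a ribosomal protein form of striated muscle, read 10.51, 11.68 and 10.64 on Lmo2 replicates 1, 2 and 3 against 5.23 to 6.57 with a median of 5.78 in wild type, and rose by 5.13 ± 0.31 (adjusted p = 7.1e-07). Gpr34, a receptor for lysophosphatidylserine, read 10.56, 9.39 and 11.21 against 5.28 to 5.66 and rose by 4.96 ± 0.29. The extracellular matrix protein gene Fbln1 read 10.41, 11.18 and 10.57 against 6.01 to 6.66 and rose by 4.43 ± 0.2, the smallest standard error of the 12 largest increases. Acox2, a peroxisomal oxidase, Olfm5, a member of the olfactomedin family, and Myh10, a non-muscle myosin, rose by 4.96 ± 0.35, 4.74 ± 0.39 and 4.41 ± 0.33. The agouti gene, whose symbol is a and which sets coat colour in the skin, rose by 4.42 ± 0.25 from 4.67 to 5.59 to 9.27 to 9.86. Igf2bp3, an RNA-binding protein of fetal tissues, read 11.39, 10.81 and 11.71 against 5.68 to 7.68 and rose by 4.55 ± 0.42 (adjusted p = 1.52e-05). Its change was 5.04 against replicates 1 to 3 and 4.06 against replicates 4 to 6, the widest gap between the sets among these 12 genes. Of its 4 other kept probes 3 rose, by 2.30 to 4.81, and 1 differed by 0.12 and missed the threshold (adjusted p over probes = 0.793).

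**Figure D2:**
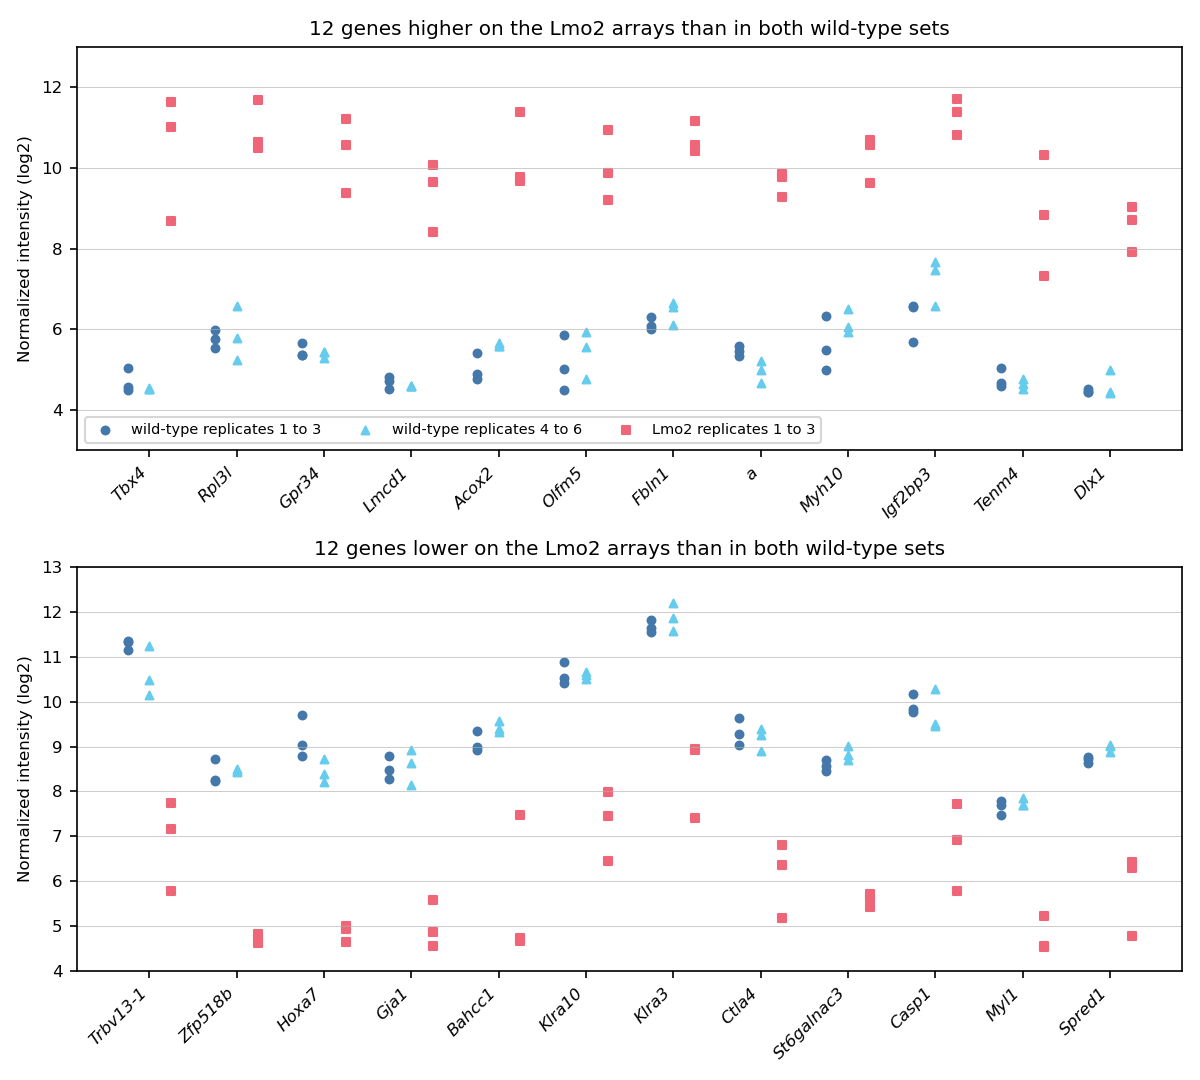
Normalized log2 intensity of each array for the 12 genes with the largest increases (top) and decreases (bottom) against both wild-type sets, with circles for wild-type replicates 1 to 3, triangles for replicates 4 to 6 and squares for the 3 Lmo2 arrays. Only genes whose 3 Lmo2 values lie outside the wild-type range were eligible, so the lack of overlap follows from the choice. Tbx4 runs from 8.69 to 11.64 on the Lmo2 arrays and from 4.50 to 5.03 on the wild-type arrays.

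The 12 largest decreases against both sets included genes of T and innate lymphocytes. Trbv13-1, a variable segment of the T-cell receptor beta chain, read 7.75, 5.79 and 7.16 on Lmo2 replicates 1, 2 and 3 against 10.16 to 11.36 with a median of 11.21 in wild type, and fell by 4.06 ± 0.38 (adjusted p = 2.1e-05). Ctla4, an inhibitory receptor of T cells, read 6.79, 5.18 and 6.36 against 8.9 to 9.63 and fell by 3.14 ± 0.3. The Ly49 receptor genes Klra3 and Klra10 fell by 3.35 ± 0.32 and 3.31 ± 0.3, and Casp1, the protease of the inflammasome, fell by 3.03 ± 0.34. In each of these 5 genes Lmo2 replicate 2 had the lowest value.

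Among the other largest decreases, Hoxa7, a homeobox factor of blood progenitors, read 4.93, 4.99 and 4.65 against 8.22 to 9.69 with a median of 8.75, was detected on no Lmo2 array and was at least 11.5-fold lower (adjusted p = 1.41e-06). Zfp518b, a zinc-finger gene, was at least 8.89-fold lower (adjusted p = 1.55e-07) and Myl1, a myosin light chain, at least 5.37-fold (2.31e-06). Gja1, a gap-junction protein, read 5.58, 4.85 and 4.54 against 8.13 to 8.93 and fell by 3.55 ± 0.27 (adjusted p = 3.37e-06). Spred1, an inhibitor of RAS-MAPK signalling, read 6.42, 6.28 and 4.78 against 8.63 to 9.04 and fell by 3.02 ± 0.29 (adjusted p = 2.26e-05). St6galnac3, a sialyltransferase, fell by 3.13 ± 0.19 with a spread of only 0.29 over the Lmo2 arrays. Bahcc1 was uneven, at 7.48, 4.66 and 4.73 against 8.92 to 9.57, and fell by 3.63 ± 0.49 (adjusted p = 0.00033), while its 2 other kept probes differed by -0.67 and -0.49 and missed the threshold (adjusted p over probes = 0.217 and 0.382).

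Transcription factors changed in both directions. Of 24 measured homeobox genes 4 rose and 2 fell (25%, against 12.5% of all genes), of which 3 and 2 held against both sets. Hhex, a factor of early blood and thymic progenitors, read 11.55, 11.79 and 12.12 on Lmo2 replicates 1, 2 and 3 against 7.79 to 8.7 with a median of 8.15 in wild type, and rose by 3.59 ± 0.23 (adjusted p = 9.6e-07), by 3.38 and 3.8 against the sets. Hoxa5 fell with Hoxa7, from 6.8 to 7.43 to 4.46 to 4.66, at least 3.48-fold (adjusted p = 6.72e-07). Of 21 T-box, SOX, KLF and GFI factors 4 rose and 4 fell (38.1%), 2 and 4 of them against both sets. Sox13, a factor of gamma-delta T cells, read 10.38, 10.19 and 10.61 against 8.43 to 8.98 and rose by 1.68 ± 0.18 (adjusted p = 7.25e-05). Tbx21, the T-bet gene of type-1 lymphocytes, fell by 2.37 ± 0.22 (adjusted p = 1.88e-05), Klf9 fell by 2.52 ± 0.41, Sox5 by 1.39 ± 0.25 and Klf3 by 1.01 ± 0.19. On Klf9 the Lmo2 arrays were uneven, at 6.97, 4.73 and 4.79 against 7.66 to 8.4. Of 28 oncogenes and tumour suppressors of T-cell leukaemia 1 rose and 1 fell (7.14%, against 12.5% of all genes), and without Lmo2 replicate 1 the lower members went from 1 to 4. Cdkn2a, the p16 and p19ARF locus, was at background on the wild-type arrays (4.44 to 5.34), read 6.68, 5.82 and 6.43 on the Lmo2 arrays and was at least 2.04-fold higher (adjusted p = 0.000768). Ikzf3, the Aiolos factor, fell by 1.14 ± 0.23 (adjusted p = 0.00671).

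Ptcra and Rag1, which serve the assembly of the pre-T-cell receptor, were lower. Of 9 markers of double-positive thymocytes, the CD4+CD8+ stage that follows, 4 fell and 1 rose (55.6%, against 12.5% of all genes). The 4 held against both sets and the 1 that rose did not. Ptcra and Rag1 are among the 4, and both lay well above background on the wild-type arrays of double-negative cells. The list therefore does not mark the later stage alone. Ptcra, the partner of the beta chain in the pre-T-cell receptor, read 5.11, 6.67 and 6.9 on Lmo2 replicates 1, 2 and 3 against 8.5 to 9.49 with a median of 9.01 in wild type, and fell by 2.78 ± 0.36 (adjusted p = 0.000241). Rag1, a recombinase of receptor genes, read 9.34, 9.48 and 9.87 against 10.88 to 11.33 and fell by 1.57 ± 0.16 (adjusted p = 3.19e-05). Cd8b1 fell by 2.26 ± 0.25 (adjusted p = 7.19e-05) and Ets2, an ETS factor, by 1.03 ± 0.16. Another kept probe of Cd8b1 fell by 2.95, and the other by 0.10 without passing the threshold (adjusted p over probes = 0.887). Of 11 stage and sort markers of double-negative cells 2 rose and 2 fell (36.4%). Kit, the receptor of the earliest progenitors, read 12.01, 10.83 and 13.05 against 9.7 to 10.66 with a median of 10.41 and rose by 1.66 ± 0.38 (adjusted p = 0.0128), while Cd44, which marks the same cells, read 8.68, 8.03 and 8.11 against 9.24 to 9.8 and fell by 1.24 ± 0.17 (adjusted p = 0.000326). Without Lmo2 replicate 3 the change of Kit was 1.12 (adjusted p = 0.0519). The fourth called marker, Cd27, rose by 0.46 ± 0.14 (adjusted p = 0.0471), did not pass against replicates 1 to 3 and lost its call without any 1 of the 3 Lmo2 arrays (adjusted p 0.0917 to 0.111) or without wild-type replicate 1, 4, 5 or 6 (0.083 to 0.094).

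Markers of other blood cells went separate ways, and in sorted bulk samples fewer cells of a type and less RNA per cell cannot be told apart. Among 15 markers of natural killer and innate lymphoid cells 12 were lower, all 12 against both sets, which is 80% against 5.89% of all genes. Their mean level ran from 6.54 to 7.71 on the Lmo2 arrays, 9.06 to 9.24 on wild-type replicates 1 to 3 and 9.24 to 9.51 on replicates 4 to 6, with no overlap, and each of the 15 was still detected on at least 1 Lmo2 array. Ccl5, a chemokine, read 8.72, 7.16 and 8.56 against 10.51 to 11.37 and fell by 2.78 ± 0.3, Klrd1, the CD94 chain, by 2.42 ± 0.26 and Klrb1c, the NK1.1 antigen, by 2.07 ± 0.25. Of 8 mature T-cell markers 4 fell, 3 against both sets, with mean levels of 7.49 to 8.49 against 8.85 to 9.34. Of 10 B-lineage markers 2 fell, and the sets disagreed: the means of 6.29 to 7.41 on the Lmo2 arrays lay below the 7.85 to 8.1 of replicates 1 to 3 and overlapped the 6.94 to 7.1 of replicates 4 to 6, with median changes of -1.17 and 0.26. Of 10 dendritic markers 2 fell against all arrays and against both sets, but 7 were lower against replicates 1 to 3 alone and 2 against replicates 4 to 6, with means of 7.87 to 8.73 against 9.46 to 9.59 and 8.43 to 8.79. Cd72 of B cells fell by 2.16 ± 0.34 and the dendritic factor Irf8 by 1.58 ± 0.3. Of 16 myeloid markers 3 rose and 2 fell, with means of 6.60 to 6.99 against 6.74 to 8.18, and of these the fall of Fcer1g, the Fc receptor gamma chain, held against both sets (-2.13 ± 0.25). How much the shares of these cells contribute to the other changes was not tested.

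Markers of erythroid, megakaryocyte and mast cells were higher in 5 of the 6 measured, 3 of them against both sets, with mean levels of 8.55 to 9.78 on the Lmo2 arrays against 6.97 to 7.46 on the wild-type arrays. Cpa3, a mast cell protease that early lymphoid progenitors also express, read 13.93, 13.91 and 14.38 against 10.02 to 10.96 with a median of 10.77 and rose by 3.4 ± 0.24 (adjusted p = 2.16e-06). Nfe2, a factor needed to make platelets, read 12.56, 12.09 and 13.06 against 9.08 to 9.75 with a median of 9.53 and rose by 3.09 ± 0.28 (adjusted p = 1.38e-05). Pf4, a platelet chemokine, was at background on every wild-type array (4.45 to 4.83), read 7.73, 6.03 and 6.15 on the Lmo2 arrays and was at least 2.57-fold higher (adjusted p = 0.00555). The 6 markers of gamma-delta T cells held 2 increases, Cpa3 and Sox13, and 1 fell, and their mean levels of 8.81 to 10.38 overlapped the wild-type range of 8.84 to 9.27. Of 3 stromal markers 2 rose, neither of them against both sets, with means of 7.35 to 8.71 against 6.69 to 7.51. Haem and iron genes showed 3 increases among 26, all against both sets, a called share of 11.5% that is close to the 12.5% of all genes. Slc40a1, the iron exporter ferroportin, read 9.68, 8.72 and 9.53 against 4.79 to 6.04 and rose by 3.89 ± 0.45 (adjusted p = 0.000105), and Tfr2, a transferrin receptor of erythroid and liver cells, read 7.19, 7.4 and 8.41 against 4.88 to 5.39 and rose by 2.53 ± 0.24. Slc48a1, a haem transporter, rose by 0.72 ± 0.15.

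**Figure D3:**
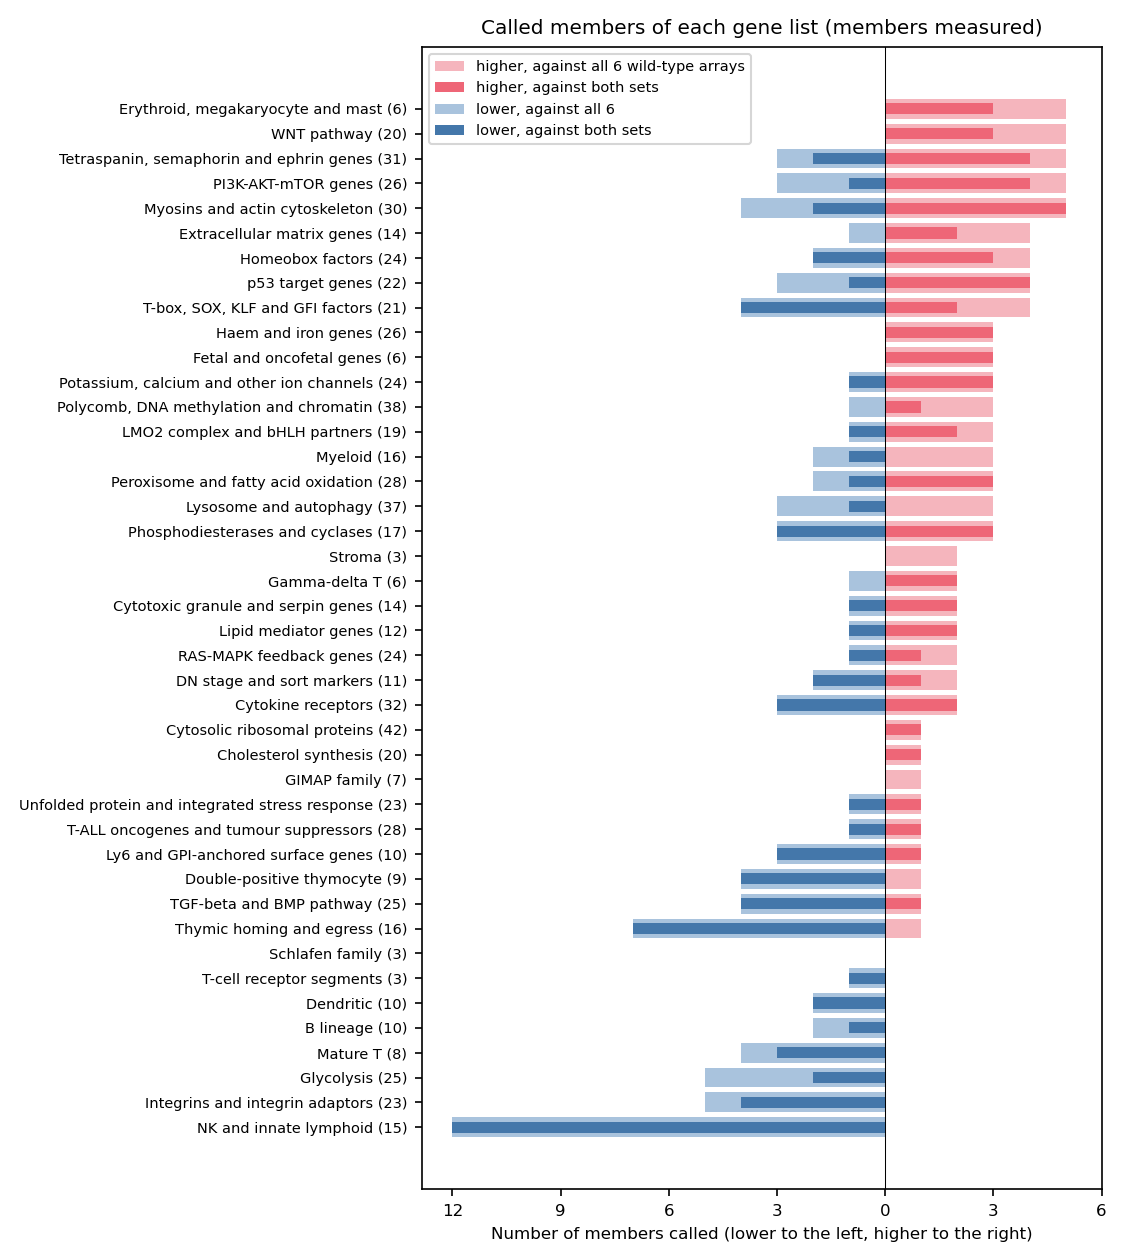
Number of members of each gene list called against all 6 wild-type arrays (pale bars) and the same way against both sets (dark bars), lower to the left and higher to the right, with the number of members measured in brackets. All 12 called natural killer markers lie to the left and all 5 called erythroid, megakaryocyte and mast markers to the right.

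Genes by which thymocytes home, adhere and leave were mostly lower where they were called. Of 16 genes of thymic homing and egress 7 fell, all against both sets, and 1 rose, so that 50% were called against 12.5% of all genes. The median change of the 16 was -0.39, against -0.0158 for all genes. Itgae, the integrin chain CD103, read 9.26, 7.05 and 8.29 on Lmo2 replicates 1, 2 and 3 against 10.34 to 10.96 with a median of 10.62 in wild type and fell by 2.43 ± 0.35 (adjusted p = 0.000601), and its 5 other kept probes fell by 1.00 to 2.73. The chemokine receptors Ccr8 and Cx3cr1 fell by 2.1 ± 0.28 and 1.64 ± 0.33, Gpr183, an oxysterol receptor, by 1.56 ± 0.29 and P2ry14, a receptor for sugar nucleotides, by 1.33 ± 0.27. Ccr6 read 7.06, 5.85 and 6.07 against 7.2 to 9.92 and fell by 2.19 ± 0.6, a call lost without Lmo2 replicate 2 (adjusted p = 0.103) or 3 (0.103) or wild-type replicate 1 (0.0598) or 2 (0.0531). Several of these receptors are also used by innate lymphocytes. Whether these decreases are linked to those of the innate lymphoid markers was not tested. The count of lower genes ran from 5 to 7 when each array was left out. Of 23 integrins and their adaptors 5 fell and none rose, 4 against both sets, and besides Itgae these were Itgad (at least 2.32-fold lower, adjusted p = 1.22e-05), Itgb4 (-1.53 ± 0.31) and Itgav (-1.25 ± 0.17). The 2 other kept probes of Itgav differed by -0.65 and 0.23 and missed the threshold (adjusted p over probes = 0.141 and 0.706).

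Among receptors and their signals the changes were mixed. Of 32 cytokine receptor genes 2 rose and 3 fell (15.6%, against 12.5% of all genes). Csf2ra, the GM-CSF receptor chain, read 6.41, 5.2 and 4.74 against 7.61 to 8.65 and fell by 2.66 ± 0.34 (adjusted p = 0.00026), Il18r1 fell by 2.5 ± 0.33 (its other kept probe differed by -0.20 and missed the threshold, adjusted p over probes = 0.673) and Il2rb by 1.83 ± 0.28, while Il12rb2 rose by 1.28 ± 0.24 beside Kit. Of 24 feedback genes of RAS-MAPK signalling 2 rose and 1 fell, the same 12.5% as all genes, with Dusp2, a phosphatase of MAP kinases, at 12.35, 12.08 and 12.7 against 10.75 to 11.09 (rose by 1.45 ± 0.16) and Spred1 lower. Of 26 genes around PI3K, AKT and mTOR 5 rose and 3 fell (30.8%), 4 and 1 against both sets. Trib2, a pseudokinase known as an oncogene of leukaemia, read 10.27, 10.66 and 10.52 against 8.77 to 9.6 and rose by 1.39 ± 0.19 (adjusted p = 0.000433), and Trib1 and Trib3 also rose, by 1.61 ± 0.36 and at least 1.36-fold. Without Lmo2 replicate 3 the change of Trib1 was 1.27 and missed the threshold (adjusted p = 0.0573). Irs2, an adaptor of insulin signalling, rose by 0.99 ± 0.22 and Pik3cb, a catalytic subunit, fell by 1.21 ± 0.24.

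WNT genes rose in 5 of 20 and fell in none, 3 of them against both sets (all genes: 6.64% higher, 4.09% against both). The ligand gene Wnt5b read 8.15, 7.5 and 8.7 against 5.07 to 6.55 and rose by 2.41 ± 0.33 (adjusted p = 0.000409), Wnt8b read 6.59, 7.53 and 5.91 against 4.91 to 5.31 and rose by 1.57 ± 0.26, and Porcn, which acylates the ligands, rose by 1.38 ± 0.27. The counts ran from 3 to 6 when each array was left out, and from 2 to 7 over the other alternatives. Of 25 genes of the TGF-beta and BMP pathway 1 rose and 4 fell (20%, against 12.5% of all genes), all 5 against both sets. The co-receptor Tgfbr3 rose by 1.06 ± 0.19, the receptor Bmpr2 fell by 1.57 ± 0.2 and the co-receptor Eng by 1.77 ± 0.37, Ltbp3, which stores the ligand, was at least 1.28-fold lower (adjusted p = 0.000952), and Id3, a target, is given above. Of 17 phosphodiesterases and adenylyl cyclases 3 rose and 3 fell, all 6 against both sets, or 35.3%. Adcy9 read 6.65, 6.99 and 7.83 against 4.73 to 5.38 and rose by 2.2 ± 0.24 (adjusted p = 7.25e-05), and Pde10a and Pde4a rose by 1.42 ± 0.31 and 0.74 ± 0.13. Pde2a fell by 1.8 ± 0.38, Pde5a by 1.43 ± 0.31 and Adcy7 by 0.98 ± 0.17. The other kept probe of Pde5a differed by -0.25 and missed the threshold (adjusted p over probes = 0.5). Of 24 ion channel genes 3 rose and 1 fell (16.7%). The ATP-gated channel P2rx7 rose by 1.45 ± 0.23, and its relative P2rx1 read 4.62, 4.89 and 5.44 against 6.39 to 7.71 and fell by 1.99 ± 0.28 (adjusted p = 0.000516).

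Surface and matrix genes changed in both directions. Of 31 tetraspanin, semaphorin and ephrin genes 5 rose and 3 fell (25.8%, against 12.5% of all genes), 4 and 2 against both sets. Ephb4, a receptor for ephrins, read 9.04, 9.82 and 8.57 against 5.1 to 5.77 and rose by 3.66 ± 0.25 (adjusted p = 1.46e-06), and of its 2 other kept probes 1 rose by 2.19 and 1 differed by 0.40 without passing (adjusted p over probes = 0.303). Nrp1, a receptor of semaphorins, read 7.95, 9.3 and 9.3 against 10.58 to 11.05 and fell by 1.95 ± 0.27 (adjusted p = 0.0004), Sema7a fell by 1.4 ± 0.16 and the tetraspanin Cd81 rose by 0.85 ± 0.18. Of 10 Ly6 and GPI-anchored surface genes 1 rose and 3 fell (40%). Cd59a, an inhibitor of complement, rose by 2.19 ± 0.34 and Cd52 and Ly6c1 fell by 1.74 ± 0.22 and 1.65 ± 0.29. Of 14 extracellular matrix genes 4 rose and 1 fell (35.7%), 2 and 0 against both sets, with Lamc1, a laminin chain, at 7.93, 8.37 and 8.2 against 6.27 to 7.02 beside Fbln1. Of 30 myosin and actin genes 5 rose and 4 fell (30%), 5 and 2 against both sets. Besides Myh10 the intermediate filament genes Vim and Lmna rose by 1.38 ± 0.17 and 1.25 ± 0.23, and the motor Myo5a read 5.82, 5.72 and 5.52 against 7.87 to 8.4 and fell by 2.47 ± 0.15 (adjusted p = 6.72e-07).

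Fetal genes were few on the arrays: 6 of 20 listed were measured and 3 rose (50%, against 12.5% of all genes called), all against both sets. Dlk1, an imprinted surface protein of fetal tissues, read 8.81, 9.46 and 9.21 against 5.04 to 5.92 and rose by 3.66 ± 0.23 (adjusted p = 8.91e-07), and Grb10, an imprinted adaptor, read 5.89, 7.04 and 7.02 against 4.62 to 5.51 and rose by 1.69 ± 0.26, while its other kept probe differed by 0.01 and missed the threshold (adjusted p over probes = 0.979). The third was Igf2bp3. Of 12 lipid mediator genes 2 rose and 1 fell (25%), with the prostacyclin receptor Ptgir at 7.06, 7.14 and 8.4 against 5.03 to 5.95 (rose by 2.0 ± 0.29) beside Gpr34, and the epoxide hydrolase Ephx1 lower by 1.46 ± 0.27 (a log2 difference of -1.46). Of 28 peroxisome and fatty acid oxidation genes 3 rose and 2 fell (17.9%), and the higher ones numbered 2 to 5 when each array was left out. Pex11a, a peroxisome membrane protein, rose by 1.53 ± 0.2 beside Acox2, and Eci1, a mitochondrial isomerase, read 6.14, 4.88 and 7.26 against 8.33 to 8.93 and fell by 2.53 ± 0.38 (adjusted p = 0.000768). Glycolysis genes fell in 5 of 25 and rose in none, with a median change of -0.297 over the list against -0.0158 for all genes. Only Pfkl (-0.56 ± 0.13) and Pkm (-0.8 ± 0.19) of these passed against both sets, and the count ran from 2 to 6 when each array was left out and from 0 to 7 over the other alternatives. Without Lmo2 replicate 1 the change of Pkm was -0.72 (adjusted p = 0.0597), and without Lmo2 replicate 3 that of Pfkl was -0.42 (0.0692). Of 20 cholesterol synthesis genes 1 rose, Insig2, which restrains the pathway (1.63 ± 0.31), and of 42 cytosolic ribosomal protein genes 1 rose, Rpl3l, or 2.38%.

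The lists that follow are to be read against the 12.5% of all genes that were called. Of 38 chromatin genes 3 rose and 1 fell (10.5%), of which Hdac9 passed against both sets, at 5.54, 7.32 and 7.1 against 4.79 to 5.58 (1.52 ± 0.32). Of 23 genes of the unfolded protein and integrated stress response 1 rose and 1 fell (8.7%), Trib3 and Sdf2l1 (-0.77 ± 0.17). Of 37 lysosome and autophagy genes 3 rose and 3 fell (16.2%), of which the protease Ctsw held against both sets (-1.15 ± 0.24). Of 14 cytotoxic granule and serpin genes 2 rose and 1 fell (21.4%), with the granule proteoglycan Srgn at 10.87, 11.73 and 11.36 against 9.76 to 10.51 (rose by 1.23 ± 0.22), Serpinb6b higher by 1.5 ± 0.31 and the death ligand Fasl lower (-2.17 ± 0.32). Of 7 GIMAP genes 1 rose, not against both sets and with 0 to 4 higher when each array was left out (4 without Lmo2 replicate 2), and of 3 Schlafen genes limma called 0, although 2 had an unadjusted p under 0.05 (adjusted p of 0.106, 0.165 and 0.792). Of 22 p53 target genes 4 rose and 3 fell (31.8%, against 12.5% of all genes), 4 and 1 against both sets. The higher ones stayed at 4 when each array was left out and numbered 1 to 5 over the other alternatives. The lower ones numbered 1 to 4 in either case. The pro-apoptotic target Bbc3, known as Puma, read 9.32, 8.45 and 9.13 against 7.62 to 8.31 and rose by 1.03 ± 0.2, Phlda3 rose by 1.31 ± 0.26, and Cdkn1a, the p21 gene, read 6.72, 5.56 and 5.15 against 7.63 to 8.83 and fell by 2.52 ± 0.32 (adjusted p = 0.000234). The 2 other kept probes of Bbc3 differed by 0.46 and 0.04 and missed the threshold (adjusted p over probes = 0.182 and 0.927). Without Lmo2 replicate 1 the change of Sdf2l1 was -0.58 (adjusted p = 0.0507).

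Several list counts turned on 1 array. Without Lmo2 replicate 3 the higher genes of the LMO2 complex went from 3 to 1, of double-negative markers from 2 to 0, of WNT genes from 5 to 3 and of tetraspanin, semaphorin and ephrin genes from 5 to 3, and the lower myosin and actin genes from 4 to 2. Without Lmo2 replicate 1 the higher matrix genes went from 4 to 2, the higher T-box and related factors from 4 to 2, as they also did without 5 of the 6 wild-type arrays, the lower p53 targets from 3 to 1 and the lower glycolysis genes from 5 to 2. Without Lmo2 replicate 1 or 3 the 3 higher myeloid markers and the 2 stromal ones went to 0, and the erythroid, megakaryocyte and mast markers from 5 to 3. Without Lmo2 replicate 2 the lower PI3K, AKT and mTOR genes went from 3 to 1 and the higher phosphodiesterases and cyclases from 3 to 5. Without wild-type replicate 2 the lower cytokine receptors went from 3 to 6. The natural killer count stayed at 12 or 13 whichever array was left out. Counts of the chromatin list (1 to 5 higher), the lysosome list (0 to 5 higher) and the B-lineage list (1 to 2 lower) moved with several arrays of both groups.

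For further genes another kept probe did not pass although the brightest one did, with adjusted p over probes in brackets. The other probe differed by 1.24 for Kit (0.325), 0.57 for Trib1 (0.411), 0.80 for Tfr2 (0.131), 0.96 for Pex11a (0.0611) and 1.13 for Tcf12 (0.244), in the direction of the call. It differed by -1.31 for Ccr6 (0.0679) and by -0.29 for Ikzf3 (0.525), also in the direction of the call, and by 0.08 for Pkm (0.91), against it. In 2 genes a pair of probes missed the threshold: Cd44 with -0.45 (0.242) and -0.28 (0.589), and Cd27 with 0.40 (0.362) and 0.56 (0.179). All 4 other probes of Lmna were higher and missed the threshold (0.64 to 0.76, 0.0593 to 0.244). The other probe was at 0.74 for Deptor (0.0853), 0.33 for Tgfbr3 (0.516), -0.21 for Adcy7 (0.757), -0.62 for Pfkl (0.475) and -0.28 for Sox5 (0.574), of which Adcy7 and Sox5 had others that passed. Among the genes that lie side by side on a chromosome it was at 1.13 for Klhl6 (0.0561) and 0.57 and 0.55 for Klhl24 (0.401 and 0.648). For Pdp1 it was at 0.20 (0.79), for Scn4b at -0.14 (0.878) and, against the call, for Zdhhc14 at 0.31 (0.488).

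Some calls against all 6 arrays rested on 1 wild-type set. Mid1, an X-linked ubiquitin ligase, read 9.2, 9.07 and 8.01 on the Lmo2 arrays, 5.68 to 8.45 on wild-type replicates 1 to 3 and 4.54 to 4.79 on replicates 4 to 6. It rose by 3.01 ± 0.8 (adjusted p = 0.0276), by 4.11 against replicates 4 to 6 (adjusted p = 0.00207), while the 1.91 against replicates 1 to 3 missed the threshold (0.122). Ccne1, the cyclin E1 gene, differed by -1.66 from replicates 4 to 6 (0.000501) and by -0.6 from replicates 1 to 3 (0.123). Rgs1, a regulator of G-protein signalling, differed by -1.91 (0.000759) and -0.82 (0.0885) in the same order, but 1 of its 2 other kept probes passed against both sets (-1.76 against all 6 arrays, adjusted p over probes of 0.00311 against replicates 1 to 3 and 9.01e-06 against replicates 4 to 6). The other way round, Il4i1, an amino acid oxidase, read 6.97, 5.48 and 6.06 against 8.31 to 8.36 on replicates 1 to 3 and 6.91 to 7.3 on replicates 4 to 6, so that it differed by -2.16 (0.00228) from the first and -0.95 (0.0708) from the second. Slc25a27, a mitochondrial carrier, differed by 2.09 (0.00498) from replicates 1 to 3 and 1.09 (0.0594) from replicates 4 to 6. The difference between the sets was not tested for these genes. Their calls against all 6 arrays (adjusted p of 0.0228 to 0.039) were each lost when some single array was left out: Mid1 without Lmo2 replicate 1 or 2 or wild-type replicate 4, 5 or 6 (0.0546 to 0.0905), Ccne1 without Lmo2 replicate 1 or 3 or the same wild-type arrays (0.0688 to 0.135), Rgs1 without Lmo2 replicate 2 or 3 or wild-type replicate 5 or 6 (0.0523 to 0.11), Il4i1 without Lmo2 replicate 2 or 3 or wild-type replicate 1, 2 or 3 (0.0501 to 0.12), and Slc25a27 without Lmo2 replicate 3 (0.11).

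The 3 Lmo2 arrays also differed from each other. At least 2 log2 units above the highest wild-type array lay 45 genes on all 3 Lmo2 arrays, 26 on 2 of them, and 23, 24 and 42 only on replicate 1, 2 and 3. At least 2 units below the lowest wild-type array lay 16 genes on all 3, 33 on 2 of them, of which 21 on replicates 2 and 3, and 8, 60 and 60 only on replicate 1, 2 and 3. Segments of the T-cell receptor gamma locus stood out on replicate 1. Trgv5 read 12.95 there, 4.55 and 4.98 on replicates 2 and 3, where it was not detected, and 7.1 to 7.92 on the wild-type arrays. Trgv7 read 12.25, 4.99 and 4.88 against 6.89 to 7.69, in the same pattern. With such a spread neither was called (differences of -0.01 and 0.11, adjusted p = 0.996 and 0.969). Without Lmo2 replicate 1 the differences were -2.74 and -2.33 and were called (adjusted p = 3.33e-05 and 3.75e-05). The other measured segments were Trgv4 and Trbv13-2. Trgv4, picked after its values were seen, read 13.66, 12 and 14.11 against 13.05 to 13.47. Trbv13-2 read 14.46, 14.48 and 14.22 against 14.48 to 14.68. Trgv4 was above the wild-type range on replicates 1 and 3 and below it on replicate 2, and without replicate 2 its difference was 0.64 (adjusted p = 0.0295), and Trbv13-1 was low on all 3. No sequence of receptors was analysed here, so clones were not counted.

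Other genes that stood apart on 1 Lmo2 array had varied roles. On replicate 1 Chst1, a sulfotransferase, read 9.69 (6.8 and 4.88 on replicates 2 and 3, 4.59 to 5.54 on the wild-type arrays) and missed the threshold (2.1 ± 0.72, adjusted p = 0.0821), and Esrp1, an epithelial splicing factor, read 9.69, 5.4 and 7.14 against 4.55 to 5.56 and rose by 2.61 ± 0.65. On replicate 2 Islr, a leucine-rich secreted protein, read 8.47 against 4.6 to 5.02, with 6.5 and 4.75 on replicates 1 and 3, and missed the threshold (adjusted p = 0.0593), with a probe that no wild-type array detected. Lower on replicate 2 than elsewhere were Sidt1, at 7.41, 5.4 and 7.98 against 9.12 to 10.54, and the chemokine gene Xcl1, at 7.59, 5.41 and 7.09 against 9.0 to 9.79, and both fell against both sets (-2.97 ± 0.47 and -2.65 ± 0.38). On replicate 3 Nme4, a mitochondrial kinase of nucleotides, read 4.85 against 9.6 and 9.12 on replicates 1 and 2 and 9.78 to 10.57 on the wild-type arrays, and it missed the threshold (-2.34 ± 0.77, adjusted p = 0.07). Chchd6 of the mitochondrial inner membrane read 7.72, 8.09 and 4.76 against 8.65 to 9.48 and fell by 2.21 ± 0.56, and the ceramidase gene Acer3 read 7.56, 7.35 and 5.66 against 8.98 to 9.16 and fell by 2.23 ± 0.32. Fbp1, a gluconeogenic enzyme, read 7.07, 7.07 and 9.94 against 5.31 to 6.04 and rose by 2.45 ± 0.5. Leaving out the array that stood apart gave 1.47 for Esrp1 (adjusted p = 0.0327), 1.49 for Fbp1 (0.000564) and -1.17 for Chchd6 (0.00698), so these calls were kept at a smaller size. Without Lmo2 replicate 3 Chst1 (3.22, adjusted p = 0.00313) and Islr (2.66, 0.000943) were called, and without replicate 1 Chst1 differed by 0.81 and without replicate 2 Islr by 0.80. Of the 2 other kept probes of Nme4 1 passed (-1.82, adjusted p over probes = 0.0271). Nme4 was called without any 1 of the Lmo2 arrays, at -3.21 (0.0194), -2.97 (0.0422) and -0.84 (0.0413) without replicate 1, 2 and 3.

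**Figure D4:**
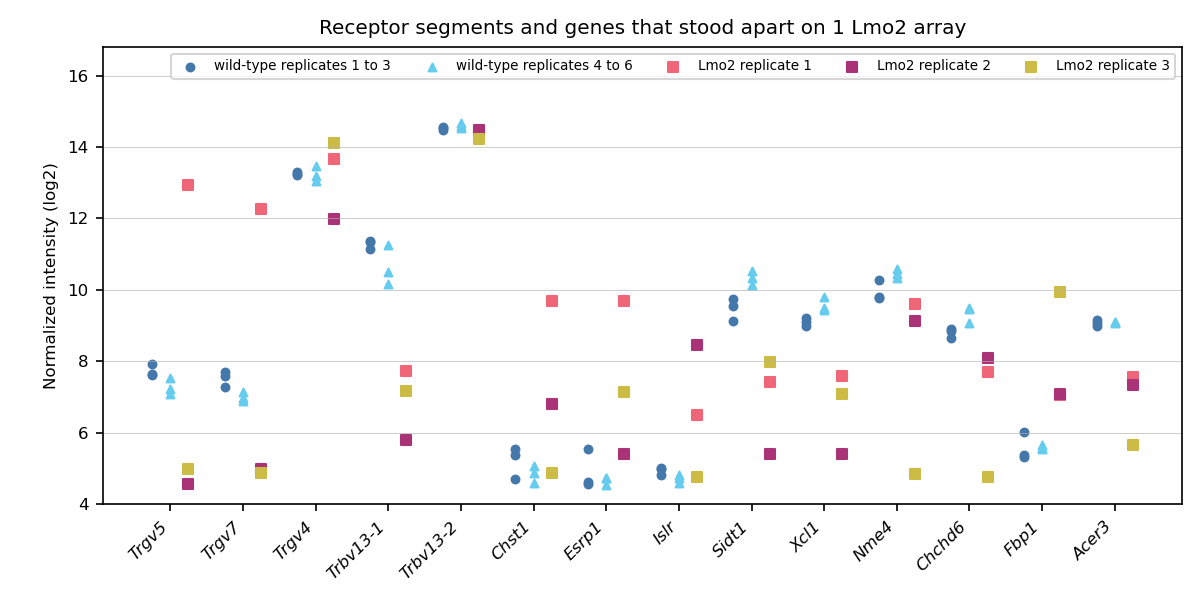
Normalized log2 intensity of each array for T-cell receptor segments and for genes that lay at least 2 log2 units outside the wild-type range on 1 Lmo2 array alone, with the 3 Lmo2 arrays in separate colours. Trgv5 and Trgv7 lie above 12 on Lmo2 replicate 1 and at 5 or lower on replicates 2 and 3.

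Genes of chromosome 15 were shifted upwards on 2 of the 3 Lmo2 arrays, a pattern found after the data were seen. The median difference of its 427 tested genes from the wild-type mean was 0.069 on Lmo2 replicate 1, 0.359 on replicate 2 and 0.438 on replicate 3. On the wild-type arrays it ran from -0.06 to 0.055 and on the 3 knockout arrays from -0.046 to 0.003. Over the other chromosomes the medians of the Lmo2 arrays ran from -0.121 to 0.0596, from -0.11 to 0.102 and from -0.0428 to 0.183, with the X chromosome at the top on replicates 2 and 3. Above the highest wild-type array lay 51.3% and 57.1% of the genes of chromosome 15 on replicates 2 and 3, against at most 28% and 36.2% of those of any other chromosome, and 29.3% on replicate 1. The shift ran along the whole chromosome: in 6 consecutive parts of 71 or 72 genes the median was 0.19 to 0.52 on replicate 2 and 0.28 to 0.60 on replicate 3, against -0.04 to 0.21 on replicate 1. Of the 427 genes 41 rose against both sets (9.6% against 4.09% of all genes) and 7 fell (1.64% against 3.65%), and 15 of the 41 rose at least 2-fold against both.

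Genes of chromosome 15 named above are Fbln1, Nfe2, Trib1, Slc48a1, Il2rb and Ly6c1, of which the last pair fell. Fbln1 (10.41, 11.18 and 10.57 on Lmo2 replicates 1, 2 and 3) and Trib1 (8.76, 9.16 and 9.96) were lowest on replicate 1, where the shift was small. Nfe2 (12.56, 12.09 and 13.06) and Slc48a1 (10.68, 10.54 and 10.77) were lowest on replicate 2 and highest on replicate 3. Angpt1, Deptor and Myc of the chromosome were picked after their values were seen. Angpt1, a ligand of the TIE2 receptor, read 10.05, 10.38 and 8.36 against 5.72 to 7.46 and rose by 2.98 ± 0.47 (adjusted p = 0.00108), and Deptor, an inhibitor of mTOR, read 8.56, 8.09 and 9.75 against 6.57 to 7.35 and rose by 1.85 ± 0.32 (adjusted p = 0.00215). Myc, which lies on the same chromosome, was not higher, at 8.56, 8.38 and 7.4 against 8.43 to 9.31 (-0.78 ± 0.27, adjusted p = 0.0788), and without Lmo2 replicate 1 its difference was -1.01 (0.0483). Leaving the chromosome out of the fit left 762 of 10099 genes called against both sets, 388 higher and 374 lower. No DNA was measured here, and the cause of the shift was not tested.

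**Figure D5:**
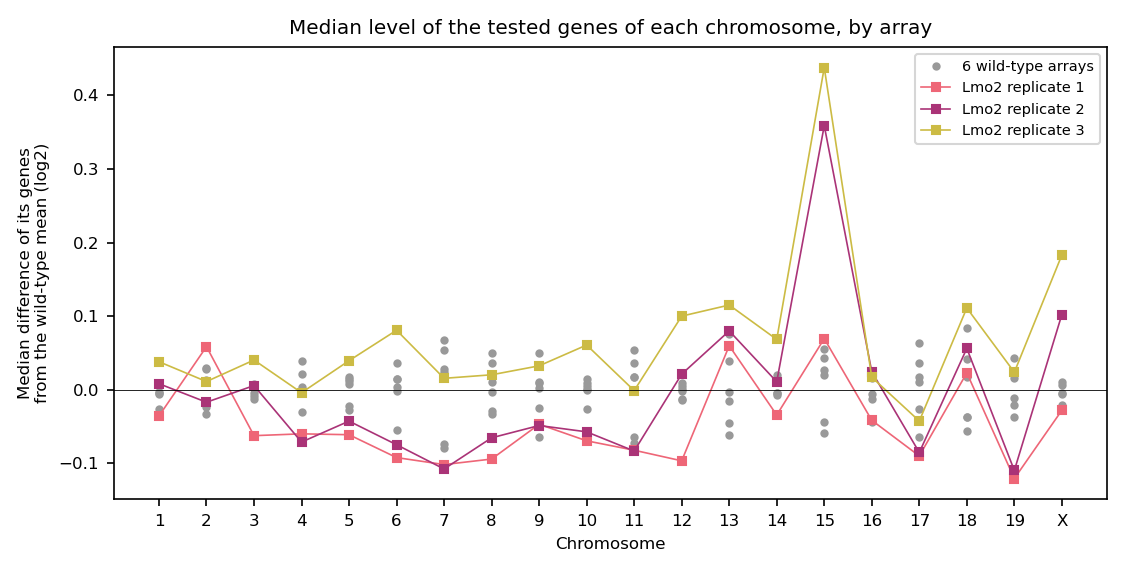
Median over the tested genes of each chromosome of the log2 difference from the mean of the 6 wild-type arrays, for each wild-type array (grey points) and each Lmo2 array (coloured squares). Lmo2 replicates 2 and 3 reach 0.359 and 0.438 on chromosome 15, and all other medians of the 3 Lmo2 arrays lie between -0.121 and 0.183.

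Called genes also lay side by side on some chromosomes. Runs of at least 3 neighbouring tested genes that changed the same way against both sets were found at 10 places. On chromosome 6 the lectin-like receptor genes Klre1, Klrd1, Klrk1, Klrc1 and Klri2 fell together, as did the Ly49 genes Klra9, Klra7, Klra10, Klra3 and Klra1, whose close copies can share probe signal. On chromosome 1 the run was Abi2, Cd28 and Ctla4, and Cd28, the costimulatory receptor of T cells, read 9.43, 9.05 and 7.47 against 9.91 to 10.99 and fell by 1.79 ± 0.39 (adjusted p = 0.00957). On chromosome 9 it was Jaml, Scn2b and Scn4b, with Jaml, an adhesion molecule of epithelial T cells, at 7.29, 5.07 and 6.61 against 8.34 to 9.09 (-2.44 ± 0.37) and Scn2b, a sodium channel subunit, at 4.71, 5.0 and 4.74 against 6.86 to 7.04 (adjusted p = 6.72e-07), a probe that no Lmo2 array detected. The 2 other kept probes of Scn2b differed by -0.29 (adjusted p over probes = 0.651) and -1.03 (0.0439). Genes that rose in a run were the acyl-CoA thioesterases Acot1, Acot5 and Acot6 of chromosome 12, of which Acot1 read 10.49, 8.88 and 8.68 against 5.37 to 6.66 and rose by 3.18 ± 0.37 (adjusted p = 0.000108). Acot1 shares much of its sequence with its relatives, so its signal may include theirs. On chromosome 16 the transcript A930003A15Rik, at 8.52, 9.57 and 9.02 against 5.6 to 7.29, rose in a run with Klhl6 and Klhl24. Others that rose were Dennd2d, Cept1 and Dram2 of chromosome 3, and Gem, Pdp1 and Rbm12b2 of chromosome 4. Lower together were Zdhhc14, Snx9, Synj2 and Serac1 of chromosome 17 and Fnbp1l, Pde5a and 1810037I17Rik of chromosome 3, where Fnbp1l, a regulator of the actin cytoskeleton, read 4.74, 4.84 and 4.84 against 7.28 to 7.65 and was at least 4.44-fold lower (adjusted p = 6.72e-07). Olfm5 and Ubqlnl, direct neighbours on chromosome 7 in the RefSeq order, both rose against both sets. Ubqlnl, of the ubiquilin family, read 8.25, 7.29 and 10.23 against 4.57 to 4.79 and was at least 9.94-fold higher (adjusted p = 8.94e-05). In both genes replicate 3 was highest and replicate 2 lowest.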

How the data were processed

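RNA of sorted thymocytes was read on Illumina MouseWG-6 v2.0 arrays, 3 of CD2-LMO2 mice, 6 of wild-type mice and 3 of CD2-LMO2 mice without Lyl1. The main values are the log2 values deposited by the authors; per the submitters' processing notes, BeadStudio and limma were used, with no version given. The raw probe intensity and detection p-value of each probe come from the authors' deposited raw table. The slope of the deposited log2 values on limma's neqc values of the raw table (background correction with quantile normalization) was 1.035.

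The members and gene lists were chosen with earlier results of these data known. Of 45281 probes, 20651 had a detection p under 0.05 on at least 3 arrays, and 17126 of these have 1 gene symbol in the platform annotation; the other 3525 were left out. The brightest probe stood for each of 10526 genes. With limma 3.58.1 in R 4.3.3, lmFit and eBayes were fitted on all 12 arrays with Benjamini-Hochberg adjustment over all genes, once with 1 wild-type mean and once with a mean per wild-type set, and the threshold was an adjusted p of 0.05. Errors are standard errors of the fit. A gene with no probe detected on any array of a group has only a bound. The number of arrays limits the precision. The steps were tested on simulated data. The shared replicate numbers did not pair the samples.

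Genes were named by rule: Lyl1 and Lmo2; the 12 largest changes each way by the smaller change over both sets, without overlap; of each list the first 2 measured and up to 4 called; up to 5 each way called against 1 set only; genes with the widest spread or standing apart on 1 Lmo2 array; and runs of at least 3 neighbours. Adcy7, Angpt1, Cd3e, Cd81, Deptor, Eif2s3y, Gpr183, Il12rb2, Irs2, Kdm5d, Klf3, Lmna, Myc, P2ry14, Pde4a, Pfkl, Sox5, Tgfbr3, Trgv4, Uty and Xist fall outside it and were chosen after their values were seen. Not every gene that the rule gave is described. Chromosomes and promoter windows come from RefSeq. Alternatives covered background correction, scaling, the filter, every probe, fewer arrays, array weights, a trend in the prior, the replicate block and leaving out each array.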

Additional observations from a re-analysis of the deposited data

Results flagged for a closer look

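Among the genes described, 10 had 1 wild-type array apart from the other 5, by a gap to its neighbour that took up most of the range of the 6 arrays (Dixon's test). Chance alone marks about 1 in 20 such groups, and more than 100 genes were examined. The arrays that stood high were replicate 5 for Cbfa2t3 (10.6, next 10.37), replicate 4 for Dlx1 (4.99, next 4.52) and Il18r1 (10.5, next 9.99), replicate 1 for Esrp1 (5.56, next 4.75), replicate 6 for Klrb1c (8.78, next 8.41), and replicate 3 for Pde4a (7.39, next 7.02) and Tbx4 (5.03, next 4.57). The arrays that stood low were replicate 3 for Il12rb2 (7.05, next 7.6) and Il2rb (6.24, next 7.07), and replicate 1 for Pde5a (5.33, next 6.5). Dlx1 and Tbx4 were detected on none of the 6 arrays, so their values there lie within background.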

How the results depend on the processing

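Main counts were 1319 genes against all 6 wild-type arrays, 1080 against replicates 1 to 3, 2569 against replicates 4 to 6 and 815 against both. Leaving out each array in turn gave 995 to 1364, 709 to 1333, 1497 to 3242 and 597 to 992. The other alternatives kept each count within 1.5 times, except a replicate block, which gave 606 genes against all arrays and the same 606 against replicates 1 to 3, since the numbers 4 to 6 occur only in wild-type arrays. No paired analysis was possible because of this for replicates 4 to 6 or for both sets. Same-numbered arrays of the Lmo2 group and wild-type replicates 1 to 3 correlated at -0.113, 0.171 and -0.305 in their deviations, so the numbers did not pair them. Scaling to a common median moved the median change against replicates 4 to 6 from -0.0277 to 0.0863. The mean of both set means, in place of the mean of 6 arrays, called 1869 genes. Of 139 named genes called, 100 kept their call in every alternative run and 122 in every one other than the block, and 0 changed sign. Trgv7, not called at 0.11, was called at -2.33 without Lmo2 replicate 1 and ran to 1.36 when each other array was left out. Array weights ended the calls of Ccr6, Il4i1, Pde10a, Slc25a27, Slc48a1 and Trib1, common-median scaling those of Pfkl and Porcn; the cause was not tested. Probes near background limit what can be seen of low genes.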
